A study of Mus musculus with 8 samples.

Results

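The genes described here are 40 members of the NF-κB pathway and of the inflammatory cytokine systems that feed it: the Rel subunits, their IκB inhibitors, the kinases and adaptors upstream of them, the TNF, interleukin-1 and interleukin-6 ligands and receptors, and genes that the pathway induces. They were listed by name, and every array probe whose RefSeq accession belongs to a listed gene was kept. No threshold on a measured value entered the rule, although the list was drawn up with earlier results of these data known. Of the 40 genes, 39 had at least 1 probe, and no probe was matched to *Nfkb1*. The 39 genes had 53 probes, and 35 of them were bright enough to test, out of 13590 tested genes among 19092 named on the array. Both groups were hearts of C57BL/6 embryos at E18.5, from mice on a chow diet with no treatment, hybridized 1 heart to an array: 4 wild-type (WT) hearts and 4 hearts of the whole-body germ-line SIRT1 knockout (SIRT1 KO). The knockout is neither heart-specific nor cell-specific, and hearts of both sexes were used. The comparison of the genotypes asks which genes differ in the heart late in gestation when SIRT1, a NAD-dependent deacetylase, is missing from the whole embryo.

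NF-κB is a family of dimeric transcription factors that inhibitors of the IκB family hold in the cytoplasm. TNF and interleukin-1 receptors recruit TRAF, RIPK1 and IRAK proteins, which activate the TAK1 and IKK kinases, and IKK marks the inhibitor for destruction so that the dimer enters the nucleus. Several of the genes it switches on, among them *Nfkbia*, *Tnfaip3* and *Birc3*, code for proteins that act back on the pathway, and SIRT1 is known to deacetylate the RelA subunit. Much of the pathway is controlled through protein modification, which RNA signals do not measure.

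The promoters of the members the results turn on are printed with the classical NF-κB core motif (GGG, any 5 bases, CC) in capitals, on either strand (GG, any 5 bases, CCC where it lies on the opposite one). Each is the 250 bases upstream of a RefSeq start site on GRCm38.p6, written 5′ to 3′ on the strand of the gene, and overlapping matches run together. *Nfkbia* is shown as the textbook target, *Il6* and *Nfkbie* as the members with the most negative and the most positive difference, and *Tnfrsf1b* as the member with probes whose intervals do not meet.
Nfkbia (chr12:55492648-55492897, minus strand): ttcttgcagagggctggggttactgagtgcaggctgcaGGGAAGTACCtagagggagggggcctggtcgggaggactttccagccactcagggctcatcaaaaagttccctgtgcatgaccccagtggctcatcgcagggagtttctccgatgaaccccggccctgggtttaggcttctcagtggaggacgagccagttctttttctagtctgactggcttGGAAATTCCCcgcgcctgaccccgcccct
Nfkbie (chr17:45555450-45555699, plus strand): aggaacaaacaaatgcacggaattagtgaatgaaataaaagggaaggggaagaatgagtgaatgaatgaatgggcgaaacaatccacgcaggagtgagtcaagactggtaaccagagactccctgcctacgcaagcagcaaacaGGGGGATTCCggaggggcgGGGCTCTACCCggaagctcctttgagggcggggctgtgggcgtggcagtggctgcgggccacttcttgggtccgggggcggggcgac
Il6 (chr5:30012864-30013113, plus strand): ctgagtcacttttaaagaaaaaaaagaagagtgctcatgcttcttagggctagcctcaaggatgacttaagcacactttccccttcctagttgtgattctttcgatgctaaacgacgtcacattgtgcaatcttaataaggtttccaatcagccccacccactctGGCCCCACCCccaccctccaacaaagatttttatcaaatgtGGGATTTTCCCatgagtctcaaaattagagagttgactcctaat
Tnfrsf1b (chr4:145246871-145247120, minus strand): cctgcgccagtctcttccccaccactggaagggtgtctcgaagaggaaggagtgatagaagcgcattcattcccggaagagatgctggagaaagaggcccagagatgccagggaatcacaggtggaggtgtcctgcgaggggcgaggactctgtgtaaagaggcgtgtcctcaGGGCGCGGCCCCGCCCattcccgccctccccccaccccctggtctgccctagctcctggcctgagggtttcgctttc
In these windows the matches of *Il6* began at -85, -44 and -43 from the start site, those of *Nfkbie* at -106, -87 and -86, and those of *Nfkbia* at -212 and -29. The *Traf1* window held no match. Windows were found for 34 of the 40 members, and *Relb*, *Nfkb1*, *Nfkbiz*, *Ikbkb*, *Tab1* and *Vcam1* were not matched. At least 1 match lay in the windows of 27 of the 34 (79.4%), against 48.7% of the 27025 genes with a window, and 45.8% of all 32851 windows held one. A match of these letters is a description and not a binding site. The 23 tested members with a match had a median log2 fold change of -0.01, and the 7 without one had -0.04.

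*Sirt1* was read by a pair of probes, and neither was lower past the threshold in the hearts labelled SIRT1 KO. On the brighter probe the log2 signal was 0.04 ± 0.19 (SD, n = 4) in WT and 0.58 ± 0.14 (SD, n = 4) in SIRT1 KO (log2 fold change 0.54, limma adjusted p = 0.0323), and on the other it was -0.20 ± 0.06 and -0.31 ± 0.22 (limma adjusted p = 0.589). Where these probes lie relative to the deleted part of the gene is not given in the sources used here, so the directions that follow rest on the labels. All values are log2 signals minus the 75th percentile of the same array, and differences are SIRT1 KO minus WT. The 4 WT arrays shared 1 slide and scan day and the 4 SIRT1 KO arrays shared another, which leaves genotype inseparable from slide and scan day (the effects cannot be told apart). The share of probes well above background ran from 59.5% to 64.9% over the 8 arrays, no spot was saturated, and precision is limited by having 4 arrays a genotype. The heart label was borne out by cardiomyocyte markers, 10 of 10 measured, with summed signals of 1461 to 1649 times the 75th percentile in WT and 1522 to 1831 in SIRT1 KO. None of the 4 lung markers was bright enough to test. Of these *Sftpc* was well above background in 1 WT and 2 SIRT1 KO hearts and *Scgb1a1* in 2 SIRT1 KO hearts. *Sftpb* and *Nkx2-1* were so in none.

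By the brightest probe of each gene and with hearts unpaired, none of the 35 tested members passed an adjusted p of 0.05 in limma. This held in either direction, while 3.69% of all tested genes passed as higher and 0.890% as lower. The members split evenly, 17 higher and 18 lower, with a median log2 fold change of -0.01 against -0.01 over all tested genes. Their differences were small in size, with a median of 0.08 in either direction against 0.12 over all tested genes. In 31 of the 35 the size was under 0.25, and in 33 of the 35 the 95% interval of the difference lay within 1.5-fold either way, the exceptions being *Il6* and *Ripk1*. At an unadjusted p of 0.05 in limma, 7 members stood out (20%), a share next to the background of 20.4% over all tested genes. They were *Nfkbie*, *Traf1*, *Chuk* and *Ikbkg* on the higher side and *Il6*, *Ripk1* and *Nfkbiz* on the lower. The methods' analysis of variance gave 3 members (8.57%) under an unadjusted p of 0.05, against 20.5% of all tested genes, and 0 after Benjamini-Hochberg adjustment, against 1.99%, and limma with a trend and robust variances called 1 lower, *Il6*, against 1.67% of all tested genes. The genotypes did not overlap in 3 members (8.57%), *Nfkbie* and *Traf1* as higher and *Il6* as lower, against 14.0% of all tested genes. Of these *Il6* was at background in 3 of its 4 SIRT1 KO hearts. No heart stood apart over the members: of the 34 with a value on every array, each heart was the highest for between 2 and 8 and the lowest for between 2 and 6.

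**Figure D1:**
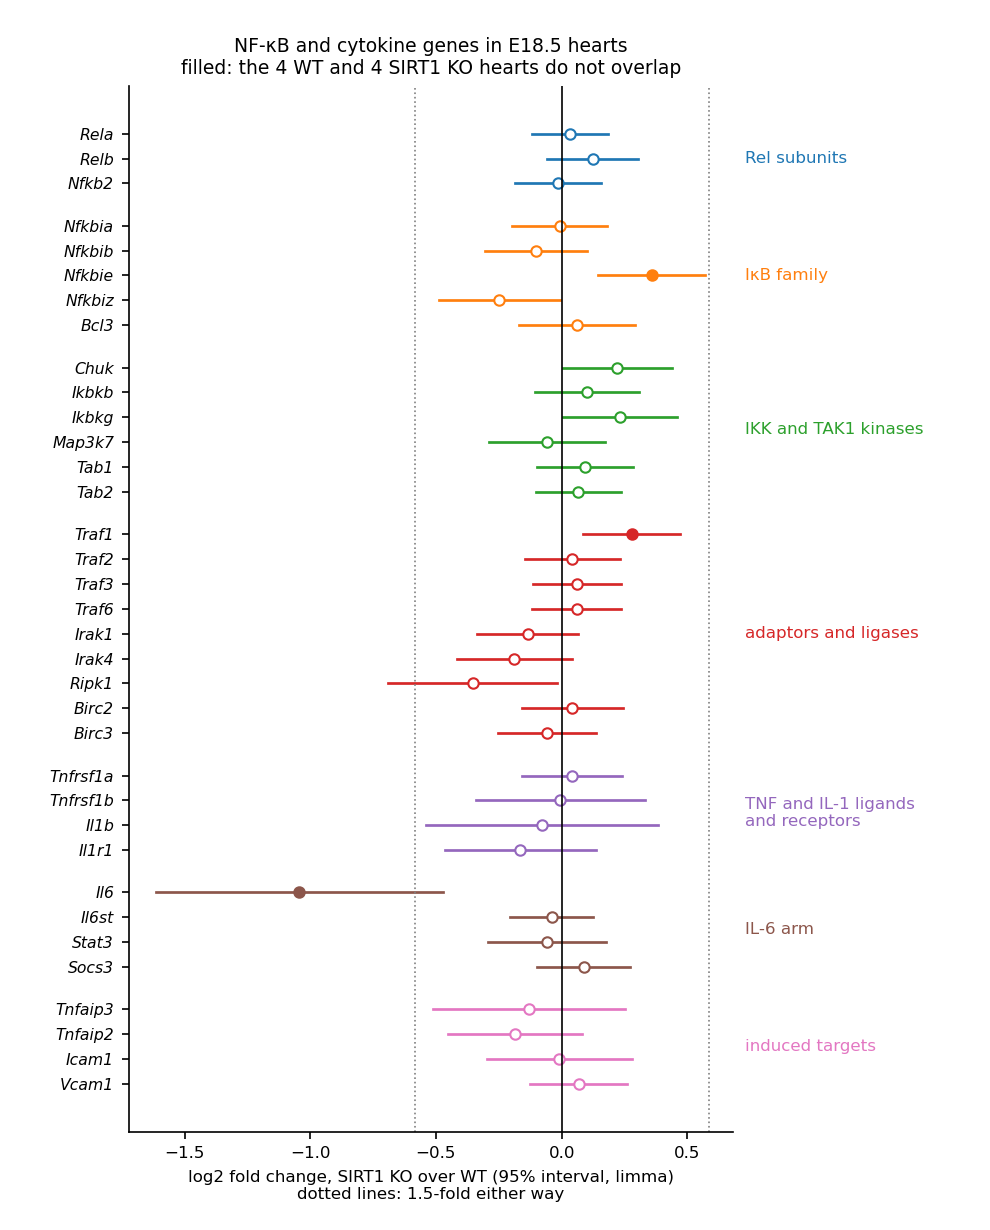
Log2 fold change of each of the 35 tested members by its brightest probe, hearts labelled SIRT1 KO over WT, grouped and coloured by role. Lines are 95% intervals from limma with 4 arrays per genotype, and filled points mark the 3 genes whose genotypes do not overlap. Most intervals cross 0 and lie inside the dotted 1.5-fold lines, and *Il6* at -1.04 lies farthest out.

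**Figure D2:**
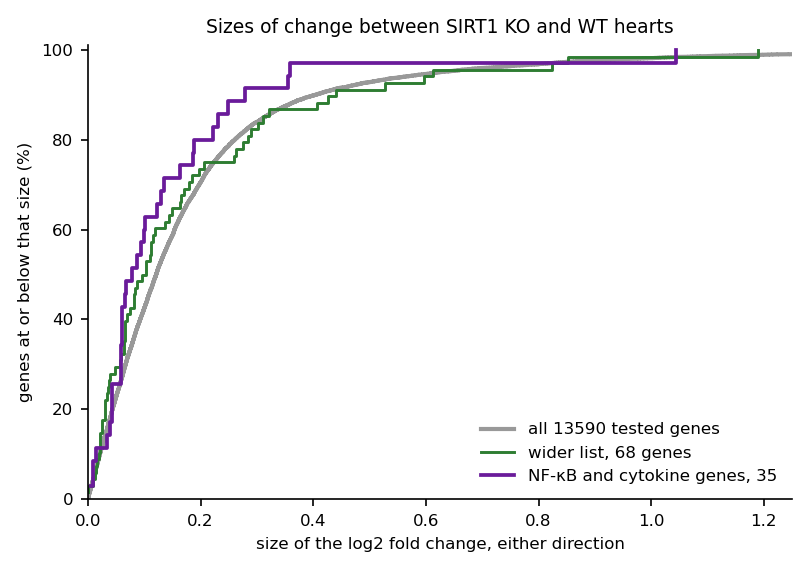
Cumulative share of genes (vertical axis, percent) with a log2 fold change at or below a given size in either direction (horizontal axis), for the 35 tested members, the 68 tested genes of a wider list and all 13590 tested genes. The members' curve climbs earlier than that of all genes, with medians of 0.08 and 0.12, and its last step is *Il6*. Every gene of both lists lies within the plotted range.

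Of the Rel subunits, 3 of 5 were tested and none differed past the threshold. *Rela*, the main transactivating subunit, read 1.26, 1.28, 1.23 and 1.31 in the WT hearts and 1.29, 1.38, 1.22 and 1.33 in the hearts labelled SIRT1 KO. These values interleave, and the difference was 0.03 (95% interval -0.12 to 0.19). *Relb*, the partner of the *Nfkb2* product in the alternative pathway, differed by 0.12 (95% interval -0.06 to 0.30) and *Nfkb2* itself by -0.01 (95% interval -0.18 to 0.16). *Rel*, the subunit best known from lymphocytes, stayed at background on all 8 arrays.

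The IκB family held 5 tested members, 2 higher and 3 lower. *Nfkbia*, which codes for IκBα and is the most used readout of NF-κB activity at the RNA level, read 3.44, 3.40, 3.15 and 3.28 in WT and 3.36, 3.29, 3.25 and 3.35 in SIRT1 KO. The SIRT1 KO hearts lay inside the WT range, with a difference of -0.01 (95% interval -0.20 to 0.18, limma adjusted p = 0.966). *Nfkbie*, which codes for IκBε, another NF-κB-induced inhibitor, read -2.40, -2.39, -2.32 and -2.22 in WT and -2.15, -1.78, -2.04 and -1.92 in SIRT1 KO. Every SIRT1 KO heart was above every WT heart, with a difference of 0.36 (standard error, SE, 0.09) or 1.28-fold, and the adjusted p of 0.0671 from limma missed the threshold. Without scaling between arrays the same difference was 0.14, beside a median of -0.23 over all tested genes.

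*Nfkbiz*, a nuclear IκB that co-activates secondary targets such as *Il6*, leaned the other way. It read -2.16, -2.29, -2.09 and -1.92 in WT and -2.46, -2.39, -2.46 and -2.14 in SIRT1 KO, where the replicate 4 heart lay within the WT range and the other 3 below it. The difference was -0.25 (SE 0.11, limma adjusted p = 0.219). *Nfkbib*, which codes for IκBβ, differed by -0.10 (95% interval -0.30 to 0.10), and *Bcl3*, a nuclear IκB that binds dimers on DNA, by 0.06 (95% interval -0.17 to 0.29).

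Among the kinases, 5 of 6 members were higher in SIRT1 KO and none passed the threshold. *Chuk*, the catalytic subunit IKKα, read 0.26, 0.03, 0.24 and 0.36 in WT and 0.54, 0.55, 0.38 and 0.31 in SIRT1 KO. Only the replicate 4 heart of SIRT1 KO fell within the WT range, and the log2 fold change was 0.22 (SE 0.10, limma adjusted p = 0.224). A second *Chuk* probe gave 0.19, with WT replicate 2 lowest on both. *Ikbkg*, which codes for the regulatory subunit NEMO, read -1.24, -1.26, -1.39 and -1.62 in WT and -1.14, -1.04, -1.27 and -1.12 in SIRT1 KO on its brightest probe. That probe differed by 0.23 (SE 0.10, limma adjusted p = 0.225), whereas its other tested probes, whose accessions name other *Ikbkg* transcripts, differed by 0.05 and -0.05. *Ikbkb*, which codes for IKKβ, differed by 0.10 (95% interval -0.11 to 0.31). For TAK1 (*Map3k7*) the difference was -0.06, and for its binding partners *Tab1* and *Tab2* it was 0.09 and 0.07. A second *Tab2* probe differed by -0.07, the other direction.

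The adaptors and ubiquitin ligases counted 9 tested members, 5 higher and 4 lower. *Traf1*, an NF-κB-induced adaptor of TNF receptors, read -3.08, -3.06, -3.00 and -2.88 in WT and -2.78, -2.55, -2.76 and -2.82 in SIRT1 KO. The genotypes did not overlap (WT replicate 4 and SIRT1 KO replicate 4 lay side by side), and the log2 fold change of 0.28 (SE 0.08, limma adjusted p = 0.104) missed the threshold. Without scaling between arrays it was 0.06. *Ripk1*, the kinase that TNF receptor complexes recruit, read -1.91, -1.60, -1.56 and -1.76 in WT and -2.49, -2.03, -1.86 and -1.87 in SIRT1 KO on its brightest probe. SIRT1 KO replicate 1 was the lowest, and the difference was -0.35 (SE 0.15, limma adjusted p = 0.21). Without that heart the difference was -0.21. The other *Ripk1* probes differed by -0.09 and 0.09, so that the 3 probes of the gene did not share a direction.

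The remaining adaptors lay closer to 0. *Traf2*, *Traf3* and *Traf6*, which relay TNF, CD40 and interleukin-1 signals, differed by 0.04, 0.06 and 0.06. The interleukin-1 receptor kinases *Irak1* and *Irak4* differed by -0.14 and -0.19, and *Irak4* was well above background on 7 of the 8 arrays. The other *Irak1* probes, well above background on all 8 arrays, differed by 0.02 and -0.002. *Birc2* and *Birc3*, which code for the ligases cIAP1 and cIAP2, differed by 0.04 and -0.06.

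Of the TNF and interleukin-1 ligands and receptors, 4 of 5 were tested. *Tnf* was well above background on none of the 8 arrays, with signals of -6.52, -6.70, -6.87 and -6.06 in WT and -6.23, -6.24, -6.26 and -6.32 in SIRT1 KO, and has no measured level in these hearts. For comparison of scale, the dimmest probe that still counted as well above background lay between -5.86 and -5.31 on the 8 arrays. *Il1b*, the cytokine cut by caspase-1, read -5.14, -5.04, -5.18 and -5.57 in WT and -5.73, -5.55, -4.80 and -5.15 in SIRT1 KO. It was well above background on 6 arrays, not on WT replicate 4 and SIRT1 KO replicate 1, the dimmest heart of each genotype, and the difference was -0.08 (95% interval -0.54 to 0.38). *Il1r1*, the signaling receptor of interleukin-1, differed by -0.16 (95% interval -0.46 to 0.14), and *Tnfrsf1a*, the death domain receptor of TNF, by 0.04 (95% interval -0.16 to 0.24).

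*Tnfrsf1b*, which codes for the second TNF receptor, held the one member probe that passed the threshold, against 3.97% of all tested probes that passed as higher. On its dimmer probe (A_51_P278282) the hearts read -4.76, -5.06, -4.71 and -4.86 in WT and -4.03, -4.17, -4.13 and -4.33 in SIRT1 KO. The genotypes were well apart there, with a log2 fold change of 0.68 (SE 0.10, limma adjusted p = 0.00665), or 1.61-fold. On its brighter probe (A_52_P228621) the hearts read -3.46, -3.15, -3.56 and -3.71 in WT and -3.68, -3.42, -3.16 and -3.63 in SIRT1 KO, which interleave, with a difference of -0.01 (95% interval -0.34 to 0.33). Both probes carry the same accession. The dimmer probe minus the brighter one, taken within each heart, averaged -1.38 in WT and -0.69 in SIRT1 KO, so the probes lay closer together in SIRT1 KO, by 0.69 and with no overlap (exact two-sided permutation p = 0.0286, the smallest that 4 against 4 allows), and 0.236 after adjustment over 11 pairs of probes in 8 member genes, a test added after the values were seen. The mean of both probes gave 0.34 and did not pass.

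**Figure D3:**
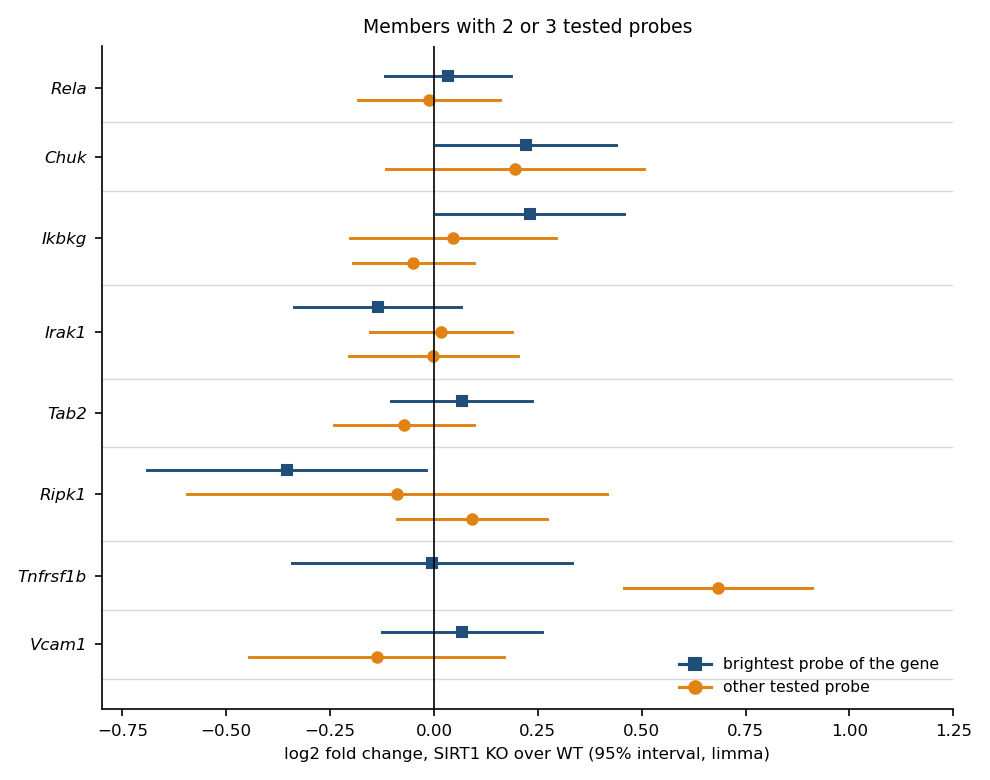
Log2 fold change of every tested probe of the 8 members with more than 1, hearts labelled SIRT1 KO over WT, with 95% intervals from limma. Squares are the brightest probe of a gene and circles its other probes. The intervals of the *Tnfrsf1b* probes, -0.01 and 0.68, do not meet, while those of the other 7 genes overlap.

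The interleukin-6 arm held the most negative fitted difference, in a gene near background. *Il6* read -4.82, -4.09, -4.60 and -4.58 in WT and -6.18, -4.97, -5.40 and -5.72 in SIRT1 KO. Every SIRT1 KO heart lay below every WT heart, and the signal was well above background in 4 of 4 WT hearts but in 1 of 4 SIRT1 KO hearts, replicate 2, so that it was tested on the strength of its WT hearts. The log2 fold change was -1.04 (SE 0.25, 95% interval -1.61 to -0.47), and its adjusted p was 0.051 from limma. With 3 of the 4 SIRT1 KO values at background, this is not an exact fold. Over 8 fits that each left out a heart and 8 other alternatives that treat the hearts as unpaired, the adjusted p ran from 0.0154 to 0.338. The series describes pairs of hearts without saying what is paired. A limma fit with the replicate number as a block gave an adjusted p of 0.0133 for *Il6*. Without SIRT1 KO replicate 2 and without a block, the adjusted p was 0.0254 with a log2 fold change of -1.24. With another background correction, which adds 50 intensity units before the logarithm, the log2 fold change shrank to -0.13. In bulk hearts, fewer cells of a type that expresses *Il6* and less *Il6* RNA per cell cannot be told apart.

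SIRT1 KO replicate 1, where *Il6* read lowest, was also the heart with the highest summed signals of neutrophil markers (13.7 times the 75th percentile, against 4.60 to 7.45 in the other 7 hearts) and of liver markers (59.7, against 4.03 to 29.4). Of these lists 6 of 8 and 4 of 6 genes were measured, the summed ranges were 5.18 to 7.09 and 4.03 to 13.3 in WT and 4.60 to 13.7 and 4.91 to 59.7 in SIRT1 KO, and the neutrophil gene *Elane* stayed at background in all 8 hearts. The part of both lists in the *Il6* value was not tested, and without that heart the log2 fold change was -0.84 (limma adjusted p = 0.0907). Macrophage and leukocyte markers, 13 of 14 measured, summed to 4.83 to 6.96 in WT and 4.66 to 8.03 in SIRT1 KO, and their genotypes overlapped. Endothelial markers summed to 48.5 to 56.7 in WT and 43.0 to 53.1 in SIRT1 KO, with 8 of 8 genes lower in SIRT1 KO by a median of -0.12, 0 of them past the threshold in limma and 1 (12.5%) at an unadjusted p of 0.05 against 20.4% of all tested genes. Their part in the *Il6* value was not tested.

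The genes that carry the interleukin-6 signal onward showed small differences. *Stat3*, the transcription factor that the receptor activates, read 2.84, 3.09, 2.80 and 2.80 in WT and 2.99, 2.86, 2.83 and 2.62 in SIRT1 KO. The ranges overlap, with a difference of -0.06 (95% interval -0.29 to 0.18). *Socs3*, a feedback inhibitor induced by STAT3, differed by 0.09 (95% interval -0.10 to 0.27), and *Il6st*, which codes for the shared receptor gp130, by -0.04 (95% interval -0.20 to 0.13). The ligand-binding receptor *Il6ra* was well above background on none of the arrays by either of its probes, so it has no measured level.

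Of the induced targets 4 of 5 were tested, 1 higher and 3 lower, with none past the threshold. *Tnfaip3*, which codes for the deubiquitinase A20 and ends NF-κB signaling, differed by -0.13 (95% interval -0.51 to 0.25). *Tnfaip2*, a TNF-induced gene, differed by -0.19 (95% interval -0.45 to 0.08), and the leukocyte adhesion molecules *Icam1* and *Vcam1* by -0.01 and 0.07. The spot of the brightest *Vcam1* probe was an outlier on the array of SIRT1 KO replicate 1, which left 3 SIRT1 KO values there. A second *Vcam1* probe differed by -0.14, the other direction. *Ptgs2*, the inducible cyclooxygenase, was at background on all 8 arrays by either of its probes.

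**Figure D4:**
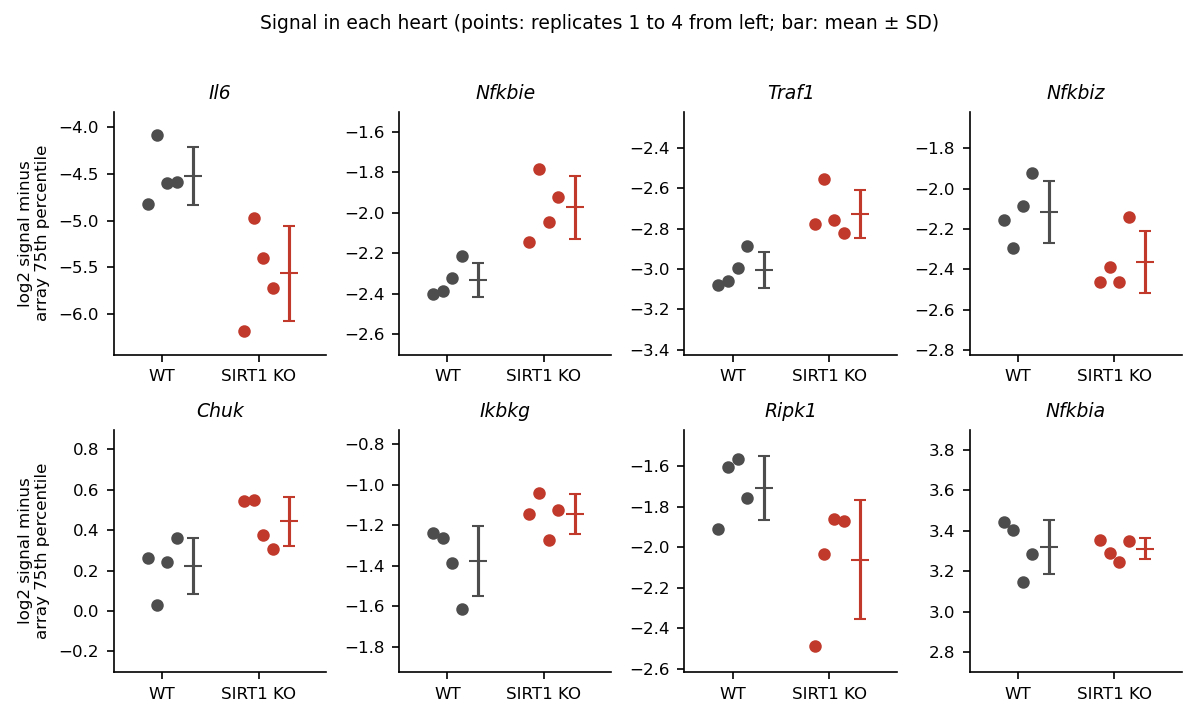
Log2 signal minus the 75th percentile of the array in each of the 4 WT and 4 SIRT1 KO hearts for the 7 members under an unadjusted p of 0.05 and for *Nfkbia*. Points are hearts, bars are the mean ± SD, and the vertical axis of *Il6* spans a wider range than those of the others. The genotypes are apart for *Il6*, *Nfkbie* and *Traf1*, and they overlap for *Nfkbiz*, *Chuk*, *Ikbkg* and *Ripk1*. For *Nfkbia* the SIRT1 KO hearts lie inside the WT range.

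A wider list of 80 other genes of the same pathways had 77 with a probe and 68 tested. Of the 68, 44 were higher and 24 lower in SIRT1 KO, with a median log2 fold change of 0.03. Over all tested genes 6580 were higher and 7010 lower, with a median of -0.01. In 51 of the 68 the size was under 0.25. In limma 2 of the 68 (2.94%) were called higher and 0 lower, against 3.69% and 0.890% of all tested genes, with 12 (17.6%) at an unadjusted p of 0.05 against 20.4%. Those shares lie at or below the background, and the genes called are given for their own values. The analysis of variance called 1 of them. The genes called were *Ctf1* and *Clcf1*. *Ctf1*, which codes for cardiotrophin 1, a growth factor of cardiomyocytes, read -0.64, -0.85, -0.72 and -0.73 in WT and 0.01, -0.07, -0.25 and -0.24 in SIRT1 KO. All SIRT1 KO hearts lay above all WT hearts, and the gene rose by a log2 fold change of 0.60 (SE 0.09, limma adjusted p = 0.00645), or 1.51-fold. It passed in each of the 8 fits that left out a heart.

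*Clcf1*, which codes for cardiotrophin-like cytokine factor 1, a ligand of the ciliary neurotrophic factor receptor, read -5.91, -5.66, -6.0 and -5.85 in WT and -4.98, -4.05, -4.41 and -5.23 in SIRT1 KO. It was well above background in 1 of 4 WT hearts and 4 of 4 SIRT1 KO hearts, so that it was tested on the strength of its SIRT1 KO hearts. Its fitted log2 fold change was 1.19 (SE 0.23, limma adjusted p = 0.0235), which is not an exact fold with 3 of the 4 WT values at background. Without any one of the 4 WT hearts its adjusted p lay between 0.0534 and 0.0719, and with the other background correction its log2 fold change was 0.50. *Cntfr*, the receptor chain that CLCF1 needs, read higher by 0.61 but missed the threshold (limma adjusted p = 0.0706).

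The leukemia inhibitory factor receptor *Lifr*, through which cardiotrophin 1 signals, was read by 5 tested probes. They differed by -0.26 on the brightest probe and by 1.45, 0.04, -0.13 and -0.08 on the others. The odd one (A_52_P192699) passed the threshold (limma adjusted p = 0.0263, and 0.0152 to 0.0787 with a heart left out, passing in 3 of 8 such fits), with -2.93, -2.81, -3.18 and -2.49 in WT and -0.86, -0.83, -2.05 and -1.86 in SIRT1 KO. *Il11* was well above background on 6 arrays and differed by 0.31, and no probe was matched to *Lif*.

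**Figure D5:**
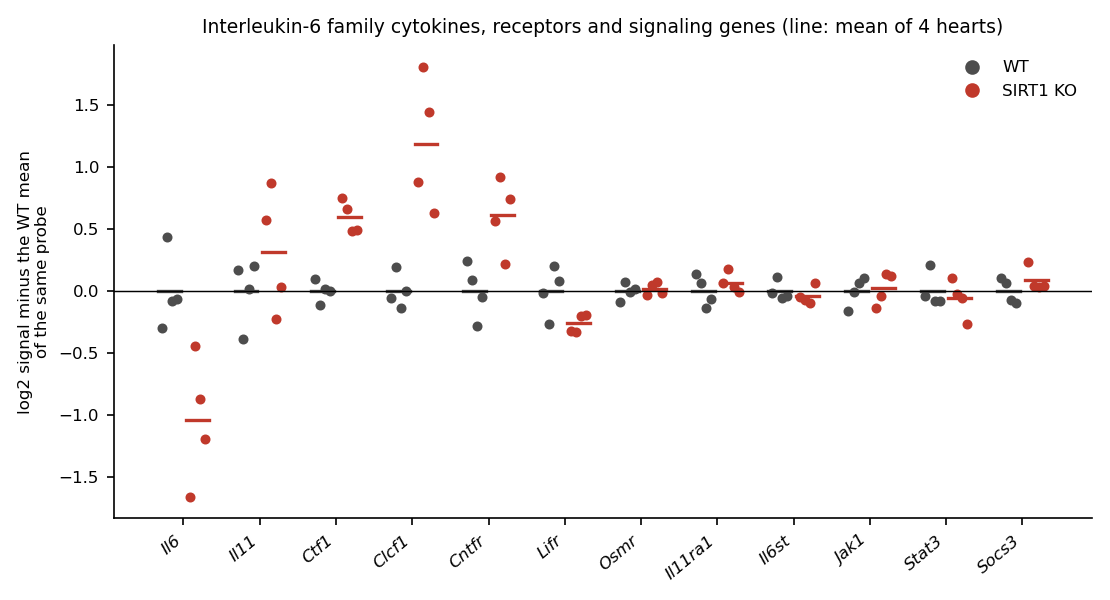
Log2 signal of each heart minus the WT mean of the same probe, for interleukin-6 family cytokines (*Il6*, *Il11*, *Ctf1*, *Clcf1*), receptors and signaling genes with a tested probe, WT in grey and SIRT1 KO in red, with a line at the mean of each genotype. The SIRT1 KO hearts sit apart from WT below for *Il6* and above for *Ctf1* and *Clcf1*, where 3 of 4 SIRT1 KO values of *Il6* and 3 of 4 WT values of *Clcf1* are at background, and they overlap WT for *Stat3*, *Socs3* and *Il6st*.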

How the data were processed

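RNA from 8 hearts was labeled with Cy3 and hybridized to one-color Agilent whole mouse genome arrays (4 WT, 4 SIRT1 KO, 500 ng total RNA each). The authors deposited the spot intensity that Agilent Feature Extraction wrote under its one-color defaults, background-subtracted and not scaled between arrays (version 12 in the submitters' processing notes, 12.0.0.7 per the file headers). The authors' value table of the series held the same intensity in 100% of spots and was not used further.

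Control and outlier spots were dropped, log2 intensity was taken relative to the array's 75th percentile, and repeated spots were averaged. RefSeq accessions named 28215 of 41174 probes (68.5%) by the GRCm38.p6 table. The 25616 probes that 4 or more of the 8 arrays read well above background were tested with limma 3.58.1 in R 4.3.3 (lmFit, eBayes) and Benjamini-Hochberg adjustment over all of them at 0.05, and a gene is given by its brightest tested probe. Of these probes 1017 were higher and 233 lower. Intervals are 95%. On simulated arrays 200 of 25535 probes were changed by a log2 fold change of 1, and 86.5% of these were recovered. False calls made up 4.95% of the calls. Smaller changes and a slide effect were not simulated. For the methods' analysis of variance genotype was the single factor.

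The members, the wider list and the marker lists were chosen with earlier results of these data known. All 40 members are named. Values of every heart are given for members with an adjusted or unadjusted p under 0.05 or no overlap, for *Rela*, *Nfkbia*, *Tnf*, *Il1b*, *Il6* and *Stat3* (and *Nfkb1*, had it been matched) by rule, and for wider-list genes past the threshold. *Cntfr*, *Lifr* and *Il11*, the dimmer probe of *Tnfrsf1b* and the genes of the interleukin-6 plot were chosen after their values were seen. Alternatives covered scaling, background correction, the filter, the test, the probe of a gene, a replicate block and each heart left out. Normexp was run on the median signal, an alternative added later because the files used here hold no mean signal column. Promoters are RefSeq sequences, and a sum of markers is the sum of signals divided by the array's 75th percentile. Python 3.11.15 with numpy 2.4.6, pandas 2.3.3, scipy 1.17.1 and matplotlib 3.10.9 was used.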

Additional observations from a re-analysis of the deposited data

Results flagged for a closer look

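Of 69 groups of 4 hearts, 1 for each genotype of each tested member with 4 values, 4 held a heart far from the other 3, where chance gives about 1 in 20. The measure is the gap to the nearest heart as a share of the group's range, set against Dixon's critical value for 4 values. In SIRT1 KO, *Socs3* read 0.91 in replicate 1 against 0.71 to 0.72 in the other hearts (share 0.960). *Tnfrsf1a* read 3.0 in SIRT1 KO replicate 4 against 2.67 to 2.71 (share 0.899), and without that heart its log2 fold change was -0.04 in place of 0.04. *Icam1* read -3.11 in SIRT1 KO replicate 1 against -3.52 to -3.45 (share 0.835), and without it the log2 fold change was -0.10. In WT, *Stat3* read 3.09 in replicate 2 against 2.80 to 2.84 (share 0.862), and without that heart the log2 fold change was 0.01. None of these genes passed the threshold with or without the heart.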

How the results depend on the processing

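Among the members *Il6* alone gained a call, as lower, with limma's trend and robust variances (log2 fold change -1.04, adjusted p = 0.0384), median scaling (-1.18, 0.0265), quantile normalization (-1.26, 0.0234) and without SIRT1 KO replicate 2 (-1.24, 0.0254), so that member genes and member probes each counted 1 lower there (under these settings in turn 1.67%, 4.91%, 1.3% and 0.537% of all tested genes and 1.5%, 4.79%, 1.48% and 0.465% of probes were lower). With no scaling between arrays, *Il6* (-1.26), *Nfkbib*, *Nfkbiz*, *Tnfaip2*, *Irak1*, *Irak4* and *Ripk1* passed as lower, 7 genes and 8 probes, against 24.8% of all tested genes and 22.3% of probes. The dimmer *Lifr* probe was not called with the analysis of variance (adjusted p = 0.102) or without the filter (limma adjusted p = 0.0563). The *Il6* value was -0.84 to -1.24 with a heart left out. With *Il6* well above background in 4 of 4 WT but 1 of 4 SIRT1 KO hearts, none of these values is an exact fold. With normexp the *Il6* difference shrank and was not called. Member genes past the threshold numbered 0 to 1 lower and 0 higher with a heart left out, and member probes 0 to 1 lower. Without the filter 2 member probes passed as higher, 1 of them an *Il6ra* probe at background on all 8 arrays. Wider-list genes called higher numbered 1 with the analysis of variance, no filter, quantile normalization or all 8 arrays well above background, 3 with normexp, and 1 to 3 with a heart left out. Those called lower numbered 1 with trend and robust variances, quantile normalization or all 8 arrays above background, 2 with median scaling, 11 with no scaling and 0 to 1 with a heart left out.

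Median scaling moved the median of all tested genes to -0.14 and no scaling to -0.23, and the members' median followed to -0.14 and -0.23 (4 higher, 31 lower in both). Relative to that shift no member changed its sign. Under median scaling the values that turned were *Rela* -0.099, *Relb* -0.010, *Ikbkb* -0.033, *Traf2* -0.090, *Traf3* -0.072, *Traf6* -0.073, *Tab1* -0.039, *Tab2* -0.067, *Tnfrsf1a* -0.091, *Vcam1* -0.065, *Birc2* -0.091, *Bcl3* -0.073 and *Socs3* -0.045. With no scaling they were *Rela* -0.19, *Relb* -0.097, *Ikbkb* -0.12, *Traf2* -0.18, *Traf3* -0.16, *Traf6* -0.16, *Tab1* -0.13, *Tab2* -0.15, *Tnfrsf1a* -0.18, *Vcam1* -0.18, *Birc2* -0.18, *Bcl3* -0.16 and *Socs3* -0.13. Normexp turned *Irak4* 0.17, *Tnfrsf1b* 0.093, *Il1b* 0.18 and *Icam1* 0.083, quantile normalization *Nfkbia* (0.018), and the mean of all probes *Tab2* -0.0024, *Tnfrsf1b* 0.34 and *Vcam1* -0.0080. With a heart left out, signs turned within *Nfkb2* -0.048 to 0.020, *Nfkbia* -0.065 to 0.034, *Traf2* -0.011 to 0.090, *Map3k7* -0.13 to 0.013, *Tnfrsf1a* -0.036 to 0.073, *Tnfrsf1b* -0.11 to 0.10, *Il1b* -0.25 to 0.062, *Icam1* -0.10 to 0.055, *Birc2* -0.019 to 0.086, *Bcl3* -0.013 to 0.13 and *Stat3* -0.11 to 0.011. None of these members passed under the setting that turned it.

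Over all probes, calls were 1017 higher and 233 lower, 383 lower with trend and robust variances, 676 and 1228 with median scaling, 435 and 111 with the analysis of variance, 106 lower without the filter, 637 and 5710 with no scaling, 2221 and 474 with normexp, 672 and 379 with quantile normalization, and 572 to 1384 and 82 to 441 with a heart left out. The causes of these shifts were not tested.

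The series describes 4 pairs of hearts without saying what is paired. Deviations of same-numbered hearts correlated with r of 0.204, 0.207, 0.056 and 0.141, and every heart correlated best with its own number, a hint from the data and not from the design. With the replicate number as a block 1 member gene and 1 member probe passed as lower (*Il6*, -1.04, adjusted p = 0.0133), wider-list calls were 4 higher and 1 lower, and all probes gave 949 and 236.

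Signals near background limit *Il6*, *Il1b*, *Irak4* and *Clcf1*. Slide and scan day cannot be told apart from genotype.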

Other observations

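Other genes of the wider list came near the threshold without passing it in the main limma fit. They are named here after their values were seen. *Il18r1*, a receptor chain for interleukin-18, read -2.91, -2.28, -2.63 and -2.59 in WT and -3.43, -2.92, -3.51 and -3.97 in SIRT1 KO, with every SIRT1 KO heart below every WT heart, a difference of -0.85 and a limma adjusted p of 0.0573. *Ikbke*, which codes for an IKK-related kinase, differed by 0.43 (limma adjusted p = 0.0737), and was well above background on 7 arrays. *Malt1*, a paracaspase that links antigen receptors to NF-κB, differed by 0.53 (limma adjusted p = 0.116). The inhibitor of apoptosis *Xiap* and the TNF receptor adaptor *Tradd* differed by 0.26 and 0.21 with no overlap between genotypes (another *Xiap* probe gave -0.14), and neither passed the threshold in limma (adjusted p = 0.107 and 0.127). Not well above background on enough arrays to be tested were *Il1a*, *Il1rn*, *Il1r2*, *Osm*, *Csf2*, *Nos2*, *Selp*, *Tnfsf12* and *Tnip3*.

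Of the 13 measured macrophage and leukocyte markers, 8 were higher and 5 lower in SIRT1 KO and 1 did not overlap (7.69%, against 14.0% of all tested genes). Picked after their values were seen, *Cd68* differed by 0.64 (limma adjusted p = 0.133) with no overlap, and *Mrc1*, a marker of resident macrophages, differed by -0.41 (limma adjusted p = 0.143). Neither passed the threshold. Between hearts of a genotype the members had a median SD of 0.12 in WT and 0.11 in SIRT1 KO, against 0.12 and 0.14 over all tested genes.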
